A study of Mus musculus with 6 samples.

Results

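The genes of the epidermal differentiation complex were compared between mice labelled Ezh1/2 2KO and mice labelled Ezh1/2 WT. A gene was taken as a member when its symbol starts with Sprr, Lce or S100a, or is Lor, Flg, Ivl, Rptn, Hrnr or Tchh, and when at least 1 probe set names it alone. This gave 42 of the 18193 genes on the array, comprising 9 Sprr genes, 15 Lce genes, 12 S100a genes and the 6 others, all of which lie in 1 stretch of mouse chromosome 3. Flg2 and Crnn, which the definition also lists, were not analysed here. Where a gene had several probe sets, the one brightest on average across the 6 arrays (in log2 units) stands for it.

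The proteins EZH1 and EZH2 are alternative enzymes of a Polycomb complex, which methylates histone H3 and represses transcription. The 2KO group lacks both, per its genotype label, and the labels do not say which promoter or cell type drove the deletion or which exons were removed. Skin cells of mice aged 14 days, on a mixed C57B6 and CD1 background, were sorted into 3 populations. These were basal epidermal cells, hair follicle matrix cells and outer root sheath (ORS) cells, each from 2KO and from WT skin, with 1 array per group. The 2KO basal sample came from females and the other 5 samples from both sexes. How many mice gave each sample is not stated, so there is no spread between replicates, no test was run, and a gene is described as higher or lower when the signals differ at least 2-fold, the fold used in the series text.

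The complex is a cluster of genes that are switched on as keratinocytes leave the basal layer. Its SPRR, LCE, loricrin and involucrin proteins are cross-linked by transglutaminases into the cornified envelope, the insoluble shell of the dead surface cells. The S100 proteins are small calcium-binding proteins, some of which act as alarm signals in stressed or wounded skin, while filaggrin, hornerin, repetin and trichohyalin are fused S100-type proteins. In embryonic epidermal progenitors, Ezh2 is known to hold back the late genes of this locus.

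Signals are MAS5 intensities on a linear scale, and their overall median, 83.2, served as a floor to which lower signals were raised before a ratio was taken. On each array 47.7% to 53.1% of the probe sets reached it. Of the members, 16 were at or above the floor on all 6 arrays, 16 on some arrays and 10 on none. Ezh2, the check of the labels, had signals of 432 in 2KO and 2563 in WT basal epidermis, 1725 in 2KO and 3578 in WT matrix, and 378 in 2KO and 2151 in WT ORS. It was 5.93-fold lower in 2KO basal epidermis and 5.69-fold lower in 2KO ORS, but 2.07-fold lower in 2KO matrix, so the matrix comparisons set an array that kept more Ezh2 signal against WT. Ezh1 was at least 4.82-fold lower in 2KO basal epidermis, 3.54-fold lower in 2KO matrix and at least 4.57-fold lower in 2KO ORS. Krt10, a keratin of suprabasal cells, read 34141 on the 2KO and 28000 on the WT basal epidermis array, against 3904 or less on both WT follicle arrays, so a suprabasal marker was bright in the population labelled basal. Msx2, a marker of matrix, read 6424 in WT matrix against 269 or less in the other WT populations, and the ORS marker Sox9 read 5089 in WT ORS against 186 in WT matrix and 3017 in WT basal epidermis.

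In basal epidermis, 12 of the 42 members were higher and 2 were lower in 2KO by 2-fold or more. The higher ones were Sprr1b, Sprr2d, Sprr2h, Sprr2i, Sprr2j-ps, Sprr2k, Lce3b, Lce3c, Lce3f, Lor, S100a8 and S100a9, and the lower ones were Flg and Tchh. This is 28.6% higher and 4.76% lower, where over all 18193 genes 4.18% were called higher and 2.59% lower. In matrix 6 members were higher (14.3%, against 5.79% of all genes) and 2 lower (4.76%, against 1.04%). In ORS 4 were higher (9.52%, against 5.38% of all genes) and 4 lower (9.52%, against 3.13%).

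**Figure D1:**
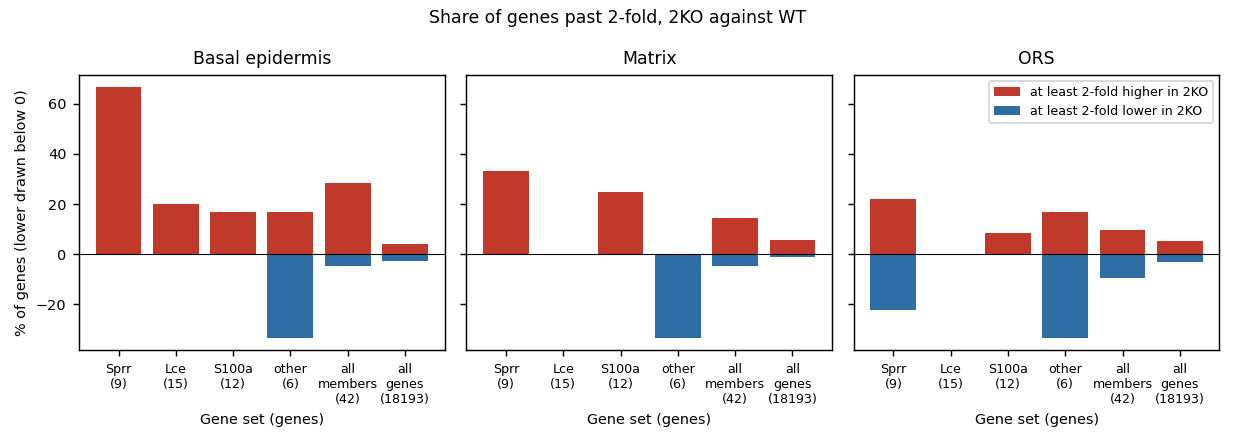
Share of genes in each set that passed 2-fold in 2KO against WT, with higher genes as bars above 0 and lower genes as bars below 0, by cell population, with the number of genes of each set in parentheses. In basal epidermis 6 of 9 Sprr genes were higher, against 4.18% of all genes.

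The split between higher and lower members in the follicle populations depended on how the arrays were scaled. With all arrays at a common median, matrix had 6 higher (3.91% of all genes at that scaling) and 4 lower (3.16%), and ORS 2 higher (3.52%) and 5 lower (5.51%). With the arrays scaled to their hybridisation controls, matrix had 6 higher (2.55% of all genes) and 7 lower (11.7%), and ORS 3 higher (4.2%) and 5 lower (4.38%). Basal epidermis had 12 higher and 2 lower under both, where all genes gave 3.8% higher and 3.47% lower at a common median and 3.53% higher and 3.22% lower with hybridisation controls. Over the 19 members whose mean log2 signal lay above the floor, the median log2 ratio of 2KO over WT was 0.31 in the basal epidermis pair, 0.50 in the matrix pair and -0.20 in the ORS pair. The same medians over all 10943 genes with such a mean were 0.02, 0.01 and -0.01. Counting members below the floor on both sides as 0, the median over all 42 members was 0 in each population, as it was over all genes.

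**Figure D2:**
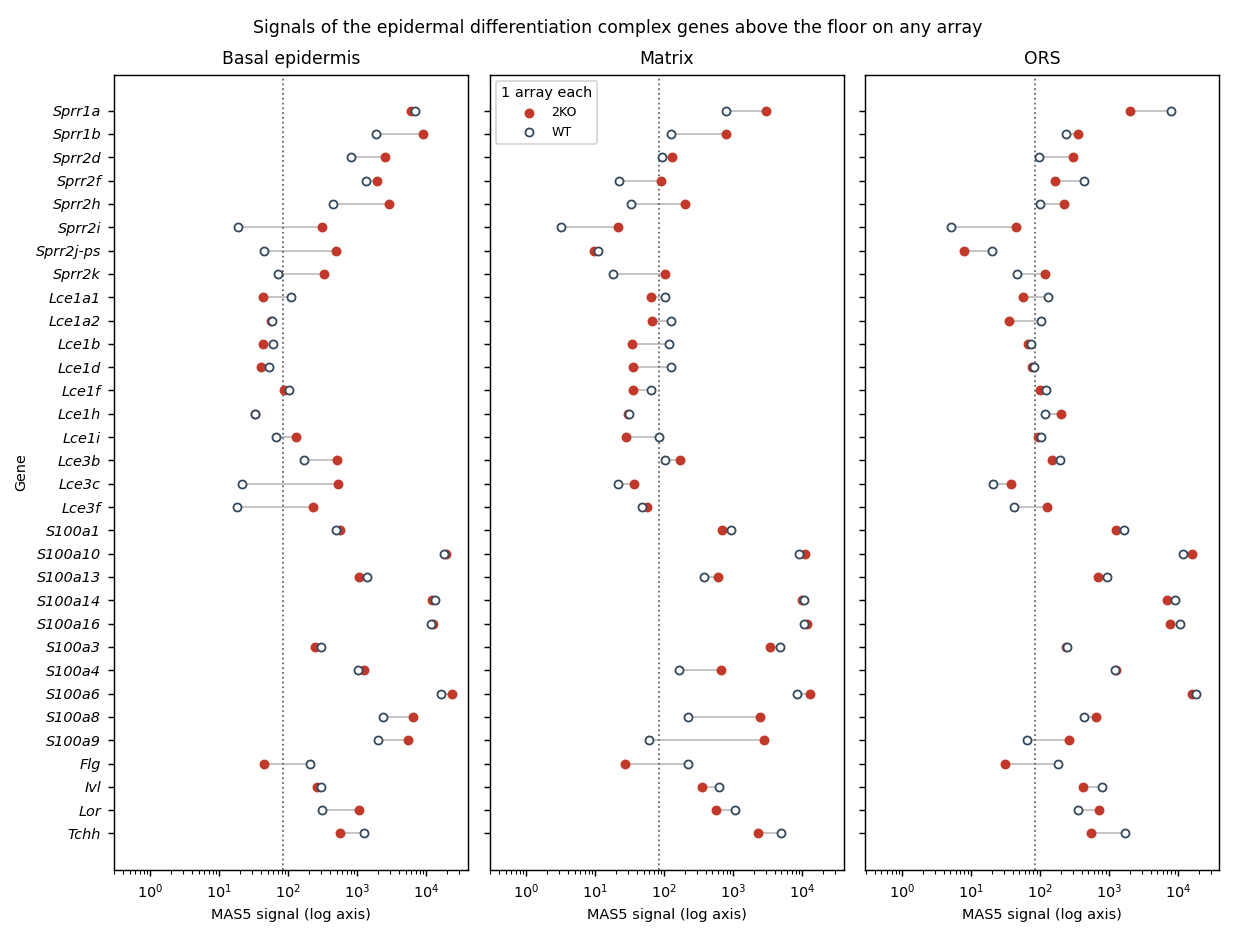
MAS5 signal (log axis) of the 32 members at or above the floor on any array, with 2KO as filled and WT as open circles, 1 array each, and the floor of 83.2 as a dotted line. Most S100a genes have overlapping circles, while Sprr1b, the Sprr2 genes other than Sprr2f, the Lce3 genes shown, S100a8 and S100a9 are drawn apart in basal epidermis.

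The SPRR proteins are short, proline-rich envelope precursors, and their genes differed most often in basal epidermis, where 6 of 9 were higher in 2KO and 0 lower. Sprr1b had signals of 9051 in 2KO and 1847 in WT basal epidermis, 772 in 2KO and 124 in WT matrix, and 355 in 2KO and 236 in WT ORS. The ratio was 4.90-fold in basal epidermis, 6.25-fold in matrix and 1.50-fold in ORS. So the 2KO signal was the higher one in each population, and past 2-fold in the first 2 of them.

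Sprr1a, its closest relative, had another pattern. It read 5996 in 2KO and 6865 in WT basal epidermis, 3004 in 2KO and 777 in WT matrix, and 2000 in 2KO and 7906 in WT ORS. The 2KO signal was thus 1.15-fold lower in basal epidermis, 3.87-fold higher in matrix and 3.95-fold lower in ORS. It was the only member past 2-fold in opposite directions in 2 populations with the signals as deposited, and Lor was another at a common median and with hybridisation controls.

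Among the Sprr2 genes, Sprr2h had the largest difference measured on both sides in basal epidermis. It read 2879 in 2KO and 446 in WT basal epidermis, 203 in 2KO and 32.9 in WT matrix, and 225 in 2KO and 101 in WT ORS, giving 6.46-fold, at least 2.44-fold and 2.24-fold. It was the 1 Sprr gene past 2-fold in all 3 populations, although its ORS ratio was below 2-fold at a common median (log2 ratio 0.91) and after quantile normalization (0.99). Sprr2d read 2488 in 2KO and 796 in WT basal epidermis, 131 in 2KO and 92.7 in WT matrix, and 299 in 2KO and 95.0 in WT ORS. Its ratios were 3.13-fold, 1.41-fold and 3.15-fold, so that matrix was the population with the small difference.

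Sprr2i, Sprr2j-ps and Sprr2k were below the floor in WT basal epidermis. Sprr2i read 309 in 2KO and 18.6 in WT basal epidermis, and at most 44.3 on the 4 follicle arrays. The pseudogene Sprr2j-ps read 496 in 2KO and 44.7 in WT basal epidermis, and at most 20.1 in the follicle. Sprr2k read 325 in 2KO and 69.6 in WT basal epidermis, 103 in 2KO and 17.9 in WT matrix, and 116 in 2KO and 45.7 in WT ORS. With the WT basal signal raised to the floor, Sprr2i was at least 3.71-fold, Sprr2j-ps at least 5.97-fold and Sprr2k at least 3.91-fold higher in 2KO basal epidermis.

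Sprr2f was the exception among the Sprr2 genes. It read 1904 in 2KO and 1338 in WT basal epidermis, 90.9 in 2KO and 22.0 in WT matrix, and 162 in 2KO and 426 in WT ORS. The difference was 1.42-fold in basal epidermis and 2.63-fold in the other direction, lower in 2KO, in ORS. Sprr3, an SPRR gene of the oral and oesophageal lining, stayed below the floor on all 6 arrays, with a highest signal of 25.5. Sprr2 genes are close copies, and a probe set can bind transcripts of more than 1 of them. The probe set used for Sprr2h carries one of the suffixes (_s_at and _x_at) by which the array marks probes that can match several transcripts, and so do those of 11 other members.

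The start regions of the Sprr genes are shown because most of these genes were higher in 2KO basal epidermis while Sprr1a and Sprr2f were within 2-fold. The 250 bases before the first listed start of each gene were taken from RefSeq (GRCm38.p6), which gave a window for 38 of the 42 members. They were searched on both strands for TGAGTCA, the site of AP-1 factors, for ATTTGCAT, the octamer bound by POU factors, and for TATAAA, the TATA box. Capitals mark these matches.
Sprr2h (chr3:92385435-92385684, plus strand): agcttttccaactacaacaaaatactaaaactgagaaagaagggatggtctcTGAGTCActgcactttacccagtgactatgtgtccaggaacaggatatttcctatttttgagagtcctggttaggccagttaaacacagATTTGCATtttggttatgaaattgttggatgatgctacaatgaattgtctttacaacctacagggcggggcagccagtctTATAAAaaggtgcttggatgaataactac
Sprr2k (chr3:92432332-92432581, plus strand): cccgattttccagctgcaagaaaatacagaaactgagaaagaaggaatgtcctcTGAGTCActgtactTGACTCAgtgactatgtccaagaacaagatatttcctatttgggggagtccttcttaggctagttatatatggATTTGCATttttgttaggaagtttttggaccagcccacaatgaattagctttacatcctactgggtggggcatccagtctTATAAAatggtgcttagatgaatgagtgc
Sprr2d (chr3:92338890-92339139, plus strand): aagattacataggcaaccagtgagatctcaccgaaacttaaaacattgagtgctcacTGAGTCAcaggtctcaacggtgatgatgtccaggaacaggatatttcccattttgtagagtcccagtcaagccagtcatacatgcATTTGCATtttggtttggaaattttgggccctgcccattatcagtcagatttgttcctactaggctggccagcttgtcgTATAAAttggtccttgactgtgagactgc
Sprr2i (chr3:92407741-92407990, plus strand): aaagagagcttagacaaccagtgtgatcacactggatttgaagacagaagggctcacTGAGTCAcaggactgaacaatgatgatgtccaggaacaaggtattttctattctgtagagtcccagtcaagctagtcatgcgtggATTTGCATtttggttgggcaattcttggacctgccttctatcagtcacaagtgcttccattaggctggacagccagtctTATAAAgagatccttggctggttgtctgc
Sprr2f (chr3:92364937-92365186, plus strand): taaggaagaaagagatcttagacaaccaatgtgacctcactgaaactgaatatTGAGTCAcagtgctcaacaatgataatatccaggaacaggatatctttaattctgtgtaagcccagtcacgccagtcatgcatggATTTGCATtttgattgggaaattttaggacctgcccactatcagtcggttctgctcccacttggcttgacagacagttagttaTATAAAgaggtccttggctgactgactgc
Sprr1b (chr3:92438780-92439029, minus strand): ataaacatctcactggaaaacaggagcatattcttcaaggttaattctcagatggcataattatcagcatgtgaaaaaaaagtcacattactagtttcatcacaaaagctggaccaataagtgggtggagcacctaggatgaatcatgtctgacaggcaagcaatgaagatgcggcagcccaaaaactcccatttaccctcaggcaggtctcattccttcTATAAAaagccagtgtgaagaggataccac
Sprr1a (chr3:92485882-92486131, minus strand): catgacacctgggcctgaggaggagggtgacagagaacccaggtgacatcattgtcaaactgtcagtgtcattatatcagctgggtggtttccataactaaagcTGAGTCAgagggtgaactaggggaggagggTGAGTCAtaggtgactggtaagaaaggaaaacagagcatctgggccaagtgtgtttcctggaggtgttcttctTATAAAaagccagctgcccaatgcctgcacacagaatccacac

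All 5 Sprr2 windows had the same layout. In each, TGAGTCA ended between 186 and 191 bases before the start, ATTTGCAT between 100 and 104 bases before it, and TATAAA 23 bases before it. Sprr2k had another copy of the AP-1 letters at 175 bases. Sprr2f, lower in 2KO ORS, had the same 3 matches as its relatives. In gapped alignments it shared 76.0% of its bases with Sprr2i, 73.6% with Sprr2d, 61.2% with Sprr2k and 57.2% with Sprr2h. With the windows of Sprr1a, Sprr3 and Sprr1b it shared 44%, 44.4% and 48.4%. Sprr1b had the TATA box alone, and Sprr1a had TGAGTCA at 139 and 109 bases and a TATA box at 37 bases.

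TGAGTCA was found in 4.46% of 32544 windows of this length over all genes, ATTTGCAT in 1.62% and TATAAA in 12.3%. Among the members it was present in 9 of 38 windows for TGAGTCA, 5 of 38 for ATTTGCAT and 18 of 38 for TATAAA. By family, TGAGTCA was in 6 of 8 Sprr windows, 0 of 14 Lce windows, 1 of 10 S100a windows and 2 of the 6 others, which were Lor and Ivl. A match describes letters in the window and not the binding of a factor.

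The late cornified envelope (LCE) genes encode small envelope proteins made in the last living layers. In human skin the LCE3 group is known to come on after injury of the barrier, while the LCE1 group belongs to undisturbed skin. In basal epidermis 3 of 15 Lce genes, Lce3b, Lce3c and Lce3f, were at least 2-fold higher in 2KO and 0 lower. That is 20% higher, where 4.18% of all genes were higher and 2.59% lower. In either follicle population 0 of 15 passed 2-fold. Over all genes 5.79% were higher and 1.04% lower in matrix, against 5.38% and 3.13% in ORS. For matrix 9 of the 15, and for ORS 8, were below the floor in both genotypes, so these counts of 0 were not read further. The probe sets of Lce3b and Lce3c end in _x_at. Without such probe sets Lce3f was the only Lce gene higher in 2KO basal epidermis.

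Lce3c read 522 in 2KO and 21.4 in WT basal epidermis, 36.0 in 2KO and 21.5 in WT matrix, and 38.3 in 2KO and 20.7 in WT ORS. It was above the floor on the 2KO basal epidermis array alone, at least 6.28-fold above WT. Lce3f read 231 in 2KO and 17.8 in WT basal epidermis, 56.0 in 2KO and 47.5 in WT matrix, and 124 in 2KO and 41.8 in WT ORS, and was at least 2.77-fold higher in 2KO basal epidermis. Lce3b read 510 in 2KO and 168 in WT basal epidermis, 170 in 2KO and 103 in WT matrix, and 147 in 2KO and 192 in WT ORS, a 3.03-fold difference in basal epidermis. The fourth Lce3 gene, Lce3a, was below the floor throughout and had its highest signal, 35.3, in 2KO basal epidermis. The window before Lce3c is shown as the Lce start with the largest ratio, and it held none of the 3 motifs.
Lce3c (chr3:92944236-92944485, plus strand): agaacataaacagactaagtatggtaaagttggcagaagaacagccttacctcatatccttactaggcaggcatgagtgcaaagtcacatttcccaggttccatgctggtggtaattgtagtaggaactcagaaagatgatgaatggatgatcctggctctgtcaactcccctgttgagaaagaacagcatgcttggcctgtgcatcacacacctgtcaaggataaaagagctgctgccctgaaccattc

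The 11 Lce1 genes were near or below the floor. Lce1c, Lce1g, Lce1l and Lce1m did not reach it on any array, and the highest Lce1 signal was 198, for Lce1h in 2KO ORS. Lce1a1 read 43.0 in 2KO and 108 in WT basal epidermis, 63.8 in 2KO and 104 in WT matrix, and 57.3 in 2KO and 130 in WT ORS. Its ratios of at least 1.30-, 1.25- and 1.56-fold lower in 2KO were within 2-fold, and at these signals a larger difference was not measurable. Other Lce1 genes also had dim signals that were lower in 2KO. In matrix, for example, Lce1b read 34.4 in 2KO and 117 in WT, and Lce1c 2.46 in 2KO and 79.3 in WT, both chosen after their values were seen. With the floor set at the 25th percentile of the signals, 21.2, 2 Lce1 genes were at least 2-fold lower in 2KO basal epidermis (Lce1a1 and Lce1c), 4 in matrix (Lce1b, Lce1c, Lce1d and Lce1i) and 3 in ORS (Lce1a1, Lce1a2 and Lce1c), and 0 were higher. The share of all genes called at this floor is not given here, so these counts were not read further.

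Loricrin, the main protein of the envelope, was higher in 2KO basal epidermis and ORS and not in matrix. Lor read 1051 in 2KO and 308 in WT basal epidermis, 565 in 2KO and 1077 in WT matrix, and 714 in 2KO and 352 in WT ORS. That is 3.41-fold higher, 1.90-fold lower and 2.03-fold higher. The ORS ratio fell short of 2-fold at a common median (log2 ratio 0.77), while the matrix ratio passed it in the lower direction there (-1.21) and with hybridisation controls (-1.56). Another Lor probe set read 858 in 2KO and 345 in WT basal epidermis, 643 in 2KO and 824 in WT matrix, and 709 in 2KO and 336 in WT ORS.

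Involucrin, an early scaffold of the envelope, was lower in 2KO by less than 2-fold on its brightest probe set with the signals as deposited. Ivl read 259 in 2KO and 295 in WT basal epidermis, 353 in 2KO and 627 in WT matrix, and 418 in 2KO and 796 in WT ORS. The ORS difference, 1.91-fold, passed 2-fold at a common median (log2 ratio -1.18), as did that of matrix (-1.11). A dimmer Ivl probe set read 14.0 in 2KO and 194 in WT matrix, and 54.4 in 2KO and 137 in WT ORS.

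Filaggrin and trichohyalin were the 2 members lower in all 3 populations. Flg, whose product bundles keratin in the granular layer, read 43.8 in 2KO and 207 in WT basal epidermis, 27.2 in 2KO and 218 in WT matrix, and 30.7 in 2KO and 180 in WT ORS. All 3 signals in 2KO were below the floor and all 3 in WT above it, for ratios of at least 2.49-, 2.63- and 2.16-fold. Tchh, which hardens the inner root sheath and the medulla of the hair, read 555 in 2KO and 1266 in WT basal epidermis, 2273 in 2KO and 4985 in WT matrix, and 542 in 2KO and 1674 in WT ORS. It was 2.28-, 2.19- and 3.09-fold lower, and these ratios stood above 2-fold under every scaling tried. Hrnr and Rptn, further fused S100-type genes, were below the floor on all 6 arrays.

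Tchh is also a gene of the inner sheath, and genes of the matrix, inner sheath and hair shaft list were lower on the same arrays. Of 29 matched, 11 were at least 2-fold lower and 3 higher in 2KO basal epidermis, 8 lower and 3 higher in matrix, and 10 lower and 3 higher in ORS. Their summed signal was 4518 in 2KO and 11719 in WT basal epidermis, 78168 in 2KO and 94695 in WT matrix, and 7578 in 2KO and 10122 in WT ORS. Their part in the Tchh difference was not tested. In sorted bulk samples, fewer cells of a type and less RNA per cell cannot be told apart.

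The S100a genes fell into a large group that differed little and a small one that differed much. S100a10, the partner of annexin A2, read 19241 in 2KO and 18259 in WT basal epidermis, 10832 in 2KO and 9081 in WT matrix, and 16017 in 2KO and 11851 in WT ORS. S100a6, or calcyclin, read 23240 in 2KO and 16072 in WT basal epidermis, 13174 in 2KO and 8337 in WT matrix, and 15912 in 2KO and 18244 in WT ORS. For these 2 genes and for S100a1, S100a3, S100a13, S100a14 and S100a16, ratios stayed between 1.01- and 1.62-fold in all 3 populations. S100a14 had signals of 6940 to 11962 in 2KO and 9080 to 13481 in WT, and S100a16 of 7605 to 12308 in 2KO and 10468 to 11564 in WT. A dimmer probe set of S100a10 read 866 in 2KO and 388 in WT matrix, and 1457 in 2KO and 701 in WT ORS, so the probe sets of this gene disagree on a 2-fold difference there. S100a5 and S100a7l2 were below the floor on all 6 arrays.

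S100a8 and S100a9, which encode the 2 chains of the alarm protein calprotectin, had higher signals in 2KO in each population. S100a9 read 5413 in 2KO and 1966 in WT basal epidermis, 2775 in 2KO and 59.8 in WT matrix, and 265 in 2KO and 65.5 in WT ORS. The ratio was 2.75-fold in basal epidermis. In matrix, where it was at least 33.4-fold, it exceeded that of any other member, and in ORS it was at least 3.19-fold. S100a8 read 6506 in 2KO and 2340 in WT basal epidermis, 2459 in 2KO and 221 in WT matrix, and 650 in 2KO and 436 in WT ORS, or 2.78-, 11.1- and 1.49-fold. Of the genes known to encode receptors for these proteins, Tlr4 was below the floor on all 6 arrays (at most 42.7) and Ager above it on 1, at 93.6 in 2KO basal epidermis. Bsg read 3294 to 5632 in 2KO and 3945 to 4909 in WT, and Cd36 read 149 in 2KO and 971 in WT ORS. Of the 12 matched receptors and partners of S100 proteins, 0 were higher in 2KO basal epidermis, 3 were higher in matrix and 1, Cd36, was lower in ORS.

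Calprotectin genes are also abundant in neutrophils, so markers of immune cells were read on the same arrays. Of 12 matched neutrophil genes, 8 were below the floor on all 6 arrays, namely Ngp, Camp, Ltf, Mmp8, Mpo, Elane, Prtn3 and Cxcr2. Their dim signals in matrix were higher in 2KO for all but Mpo (21.2 in 2KO and 37.9 in WT). Mmp8, for example, read 68.7 in 2KO and 1.96 in WT matrix, and Cxcr2 52.0 in 2KO and 10.4 in WT matrix. With both signals below the floor, these differences were not measured. In matrix 3 of the 12 were higher in 2KO. They were Lcn2 (503 in 2KO and 126 in WT) and Stfa2l1 (300 in 2KO and 42.3 in WT), which keratinocytes also make, and Csf3r (248 in 2KO and 11.1 in WT). In basal epidermis 1 of the 12 was higher, Stfa2l1, at 792 in 2KO and 169 in WT. The list's summed signal was 1429 in 2KO and 341 in WT matrix, 3589 in 2KO and 2759 in WT basal epidermis, and 3564 in 2KO and 8671 in WT ORS. Lcn2 made up most of the sums in basal epidermis (2507 in 2KO and 2291 in WT) and ORS (3099 in 2KO and 8296 in WT). Of 19 general immune genes, 9 were higher and 0 lower in 2KO matrix, led by Tyrobp (at least 4.20-fold) and H2-Eb1 (9.11-fold), and their sum was 7512 in 2KO and 2160 in WT. In basal epidermis 0 of the 19 were higher and 3 lower, with a sum of 8642 in 2KO and 11108 in WT.

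S100a4, known as a gene of fibroblasts and moving cells, was higher in matrix alone. It read 1264 in 2KO and 1021 in WT basal epidermis, 658 in 2KO and 162 in WT matrix, and 1241 in 2KO and 1208 in WT ORS, a 4.06-fold difference in matrix and 1.24- and 1.03-fold in the others. On the same array 15 of 18 fibroblast genes were at least 2-fold higher in 2KO, with Col6a1 6.39-fold and Vim 3.89-fold, and their sum was 48816 in 2KO and 23898 in WT. In basal epidermis 2 of 18 were higher, and in ORS 5 of 18. The part of these markers in the S100a4 and S100a9 differences was not tested.

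**Figure D3:**
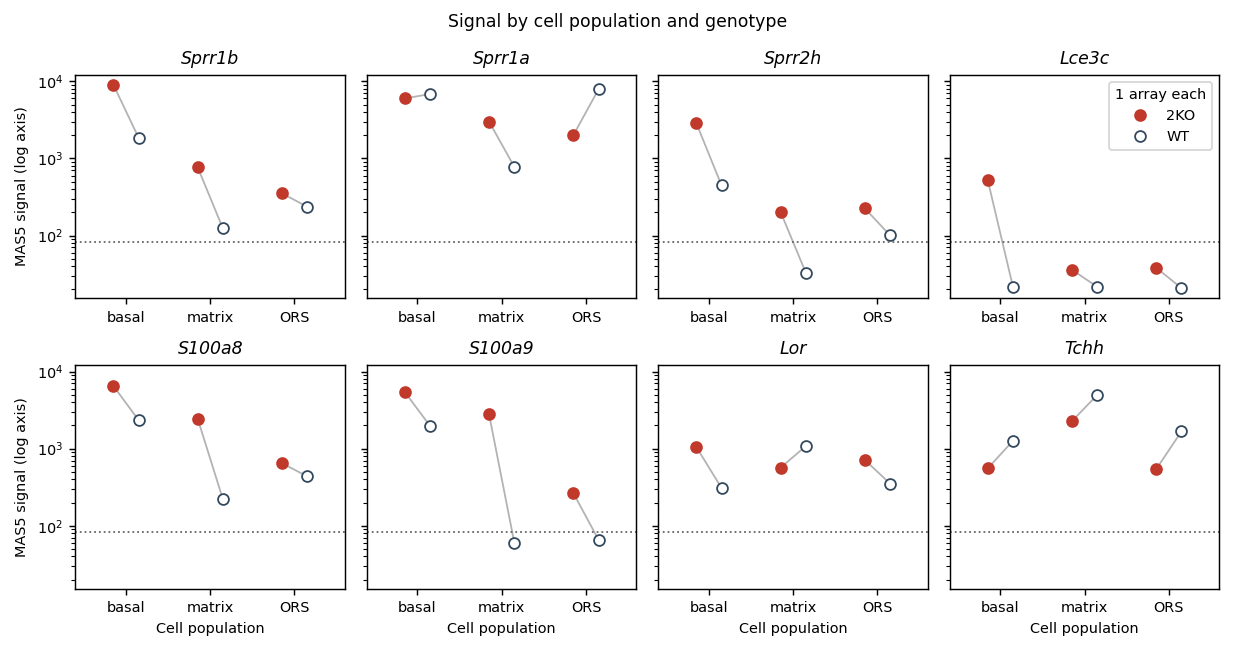
MAS5 signal (log axis) of 8 members in each cell population, with 2KO (filled) left of WT (open), 1 array each, and the floor of 83.2 as a dotted line. Sprr1a slopes in opposite directions in matrix (3004 in 2KO, 777 in WT) and in ORS (2000 in 2KO, 7906 in WT), Lce3c clears the floor on the 2KO basal epidermis array, and Tchh is lower in 2KO in each population.

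The levels of the members differed between the WT populations as well. In WT basal epidermis 10 of 42 members were at least 2-fold higher than in WT matrix (8.57% of all genes were) and 4 lower (7.03% of all genes). Those higher were Sprr1a, Sprr1b, Sprr2d, Sprr2f, Sprr2h, S100a4, S100a8, S100a9, S100a10 and S100a13, and those lower were Ivl, Lor, S100a3 and Tchh. Sprr1b, for instance, was 14.9-fold and Sprr1a 8.84-fold higher in WT basal epidermis. Against WT ORS, 6 members were higher in WT basal epidermis (2.58% of all genes) and 2, Ivl and S100a1, lower (3.66%). Sprr1a was the Sprr gene with similar signals in both, at 6865 in WT basal epidermis and 7906 in WT ORS, while Sprr1b was 7.83-fold and Sprr2d 8.38-fold higher in WT basal epidermis.

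In WT matrix 3 members, S100a3, Tchh and Lor, were higher than in WT ORS (5.4% of all genes) and 5 lower (8.76%). S100a3, a calcium-binding protein of the hair cuticle, read 3427 in 2KO and 4822 in WT matrix, 244 in 2KO and 301 in WT basal epidermis, and 240 in 2KO and 242 in WT ORS. WT matrix was 19.9-fold above WT ORS, and the 2 genotypes lay within 1.41-fold of each other in each population. These 3 comparisons share arrays with each other and with the comparisons of genotypes.

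The 6 members higher in 2KO matrix were Sprr1a, Sprr1b, Sprr2h, S100a4, S100a8 and S100a9. In WT basal epidermis over WT matrix, a comparison that uses the same WT matrix array, their ratios were 8.84-fold, 14.9-fold, at least 5.36-fold, 6.30-fold, 10.6-fold and at least 23.6-fold. Genes of neighbouring layers were higher on the 2KO matrix array, with 5 of 11 basal layer genes (Krt14 2.87-fold) and 9 of 16 ORS and follicle stem cell genes (Krt79 18.1-fold, Sox9 12.6-fold) higher and 0 of either list lower. Their part in the differences of the members was not tested.

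Among the 2KO populations most Sprr genes were higher in basal epidermis. There, 8 of 9 Sprr genes were at least 2-fold higher than in 2KO ORS and 7 of 9 higher than in 2KO matrix, against 4 of 9 and 5 of 9 for the WT populations. Lce3b and Lce3c were at least 2-fold higher in 2KO basal epidermis than in both 2KO follicle populations. Lce3f was at least 2.77-fold above 2KO matrix but 1.86-fold above 2KO ORS. Over all genes, 2.84% were higher in 2KO basal epidermis than in 2KO ORS and 4.78% higher than in 2KO matrix. Members below the floor in WT could not be counted there, so the change in these counts was not read further. Sprr1a read 5996 in 2KO basal epidermis and 2000 in 2KO ORS, a difference that the WT arrays did not have.

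Along the locus, the genes that differed in basal epidermis lay in several stretches. The RefSeq gene table of GRCm38.p6 holds 101 genes from S100a1 to S100a10, of which 49 were on the array, the 42 members and 7 others. In the order of these 49 genes, which skips the rest of the 101, S100a8 and S100a9 are neighbours, as are Lor and the non-member Prr9. Sprr2d to Sprr1b form a run in this order, with Sprr2f the 1 gene within 2-fold, and Lce3b, Lce3c and Lce3f follow each other in it. Between the Sprr2 and Lce3 runs lie Sprr3, Sprr1a, Ivl, Lce3a and the Lce1 genes other than Lce1m. The non-members Smcp, Kprp and 2310050C09Rik lie there too. Of all these, 0 passed 2-fold in basal epidermis. Over all genes 4.18% were higher there and 2.59% lower. Sprr3, Lce1a2, Lce1b, Lce1c, Lce1d, Lce1g, Lce1h, Lce1l, Lce3a, Smcp and Kprp were below the floor in both genotypes there. They could therefore not pass 2-fold. Lce3a, for instance, read 35.3 in 2KO and 6.12 in WT basal epidermis. With the floor at 21.2, Lce1a1 and Lce1c were at least 2-fold lower in 2KO basal epidermis.

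Of the 7 genes of the locus that the definition does not take in, Prr9, Crct1 and Tchhl1 passed 2-fold in at least 1 population and the other 4 in none. Prr9 lies next to Lor among the genes on the array. It read 2031 in 2KO and 835 in WT basal epidermis, 11403 in 2KO and 1323 in WT matrix, and 2227 in 2KO and 490 in WT ORS. It was 2.43-, 8.62- and 4.54-fold higher. Crct1 lies next to Lce3f among the genes on the array. It read 1034 in 2KO and 268 in WT basal epidermis, 514 in 2KO and 202 in WT matrix, and 419 in 2KO and 367 in WT ORS, or 3.85-, 2.55- and 1.14-fold. Tchhl1, the relative and neighbour of Tchh, read 30.8 in 2KO and 215 in WT matrix and was below the floor on the other 5 arrays.

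**Figure D4:**
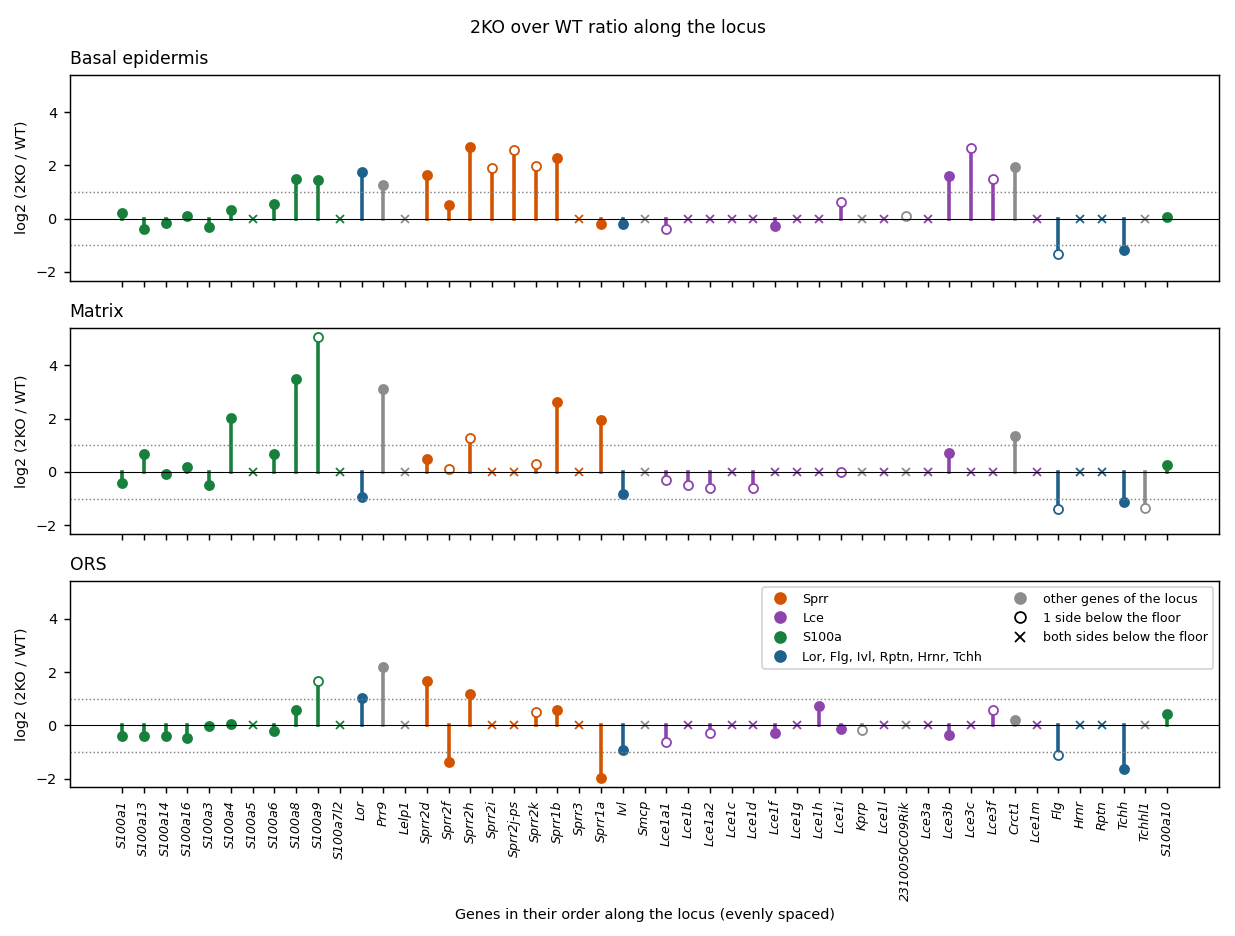
Log2 ratio of 2KO over WT for the 49 genes of the locus on the array, evenly spaced in their order along the chromosome, in 3 panels by cell population. Filled points had both signals at or above the floor, open points had 1 below it, crosses had both below it, and dotted lines mark 2-fold. The Sprr1b point and those of the Sprr2 genes other than Sprr2f stand above the upper line in basal epidermis, while Flg and Tchh stand below the lower line in all 3 panels.

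Differentiation genes outside the locus went both ways. Of 34 suprabasal and envelope genes, 7 were higher and 7 lower in 2KO basal epidermis, 12 higher and 2 lower in matrix, and 1 higher and 6 lower in ORS. Tgm1, the transglutaminase that cross-links SPRR and loricrin, read 1201 in 2KO and 540 in WT basal epidermis, 846 in 2KO and 351 in WT matrix, and 904 in 2KO and 460 in WT ORS. The suprabasal keratins Krt1 (17735 in 2KO and 16394 in WT) and Krt10 (34141 in 2KO and 28000 in WT) were within 2-fold in basal epidermis. Krt77, another keratin of the list, had its largest ratio in basal epidermis and in ORS. It read 112 in 2KO and 7616 in WT basal epidermis, 608 in 2KO and 221 in WT matrix, and 68.8 in 2KO and 1937 in WT ORS. That is 67.8-fold lower, 2.76-fold higher and at least 23.3-fold lower. Krt2 was 2.65-fold higher in 2KO basal epidermis. Calml3 was 5.29-fold higher and Klk7, a protease of desquamation, 6.38-fold lower there, and in ORS the calmodulin-like Calm4 was 7.58-fold lower.

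Stress and wound genes of keratinocytes were read beside the members. Of 25 matched, 9 were higher and 1 lower in 2KO basal epidermis, 14 higher and 1 lower in matrix, and 9 higher and 4 lower in ORS. Krt6b, a keratin of wounded epidermis, read 18089 in 2KO and 3657 in WT basal epidermis, 1121 in 2KO and 95.7 in WT matrix, and 1608 in 2KO and 219 in WT ORS. The list's other keratins, Krt6a, Krt16 and Krt17, were within 2-fold in basal epidermis (1.41-, 1.47- and 1.02-fold). In matrix they were 17.7-, 4.42- and 3.15-fold higher in 2KO. In ORS Krt16 was 2.17-fold higher, while Krt6a and Krt17 were within 2-fold (1.12- and 1.02-fold). Of 29 regulators of epidermal differentiation, 23 were within 2-fold in basal epidermis, with 2 higher and 4 lower (4.18% and 2.59% of all genes). For matrix 26 were within 2-fold, with 3 higher and 0 lower (5.79% and 1.04% of all genes). For ORS 22 were within 2-fold, with 3 higher and 4 lower (5.38% and 3.13% of all genes). The regulators named next had the largest ratios of the list, so they do not stand for it. Grhl3, a factor that drives barrier formation, was 4.16-fold higher and Prdm1 3.64-fold higher in 2KO basal epidermis, where Satb1, a chromatin organiser of this locus, was 6.50-fold lower and Gata3 3.87-fold lower. In ORS Rora was 4.16-fold higher, and Zfp750 was 3.97-fold and Cebpa 2.80-fold lower.

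Markers of other cell types differed on the ORS arrays too. Of 8 sebocyte genes, 7 were lower in 2KO ORS, with a summed signal of 13733 in 2KO and 47130 in WT, and Elovl3 was 9.37-fold lower. Sprr1a and Sprr2f were lower on the same array, and the part of the sebocyte genes in that was not tested. Skeletal muscle genes were higher in 2KO matrix in 6 of 13 cases (Acta1 13.0-fold), and endothelial and melanocyte genes were higher there in 0 of 12 and 0 of 9.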

How the data were processed

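RNA from 6 sorted mouse skin samples was read on Affymetrix arrays of 45101 probe sets. The deposited values are linear intensities. They are MAS5 signals per the submitters' processing notes, made from background-subtracted images per the series text, and the MAS5 version is not given in the sources used here. Each deposited array has a 2% trimmed mean of 500, so the authors' signals were already scaled and were used as they stand. A shift of most genes one way cannot be seen in such values.

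The platform annotation (34945 probe sets with 1 gene, 932 with several, 9160 unlisted) gave the names, and all 42 member gene identifiers were found in the RefSeq table. Control and several-gene probe sets were left out. Signals were raised to a floor of 83.2, the median over non-control probe sets, and log2 ratios were taken. "At least" marks a ratio with 1 side at the floor. Spread within a group cannot be had from single arrays. An additive fit of genotype and population over the 6 arrays was possible but was not made, since the populations are not replicates of each other, and the number of arrays limits the precision. Every member is accounted for. Those past 2-fold in any population, the 6 with the highest mean and the named single genes are given on all arrays, with selected genes of the other lists. The 14 other lists and the members were chosen with earlier results of these data known. The calling was tested on simulated data. Alternatives varied scaling, floor and probe set choice. Python 3.11.15, pandas 2.3.3 and numpy 2.4.6 were used.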

Additional observations from a re-analysis of the deposited data

Results flagged for a closer look

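Sprr1a had opposite differences in the follicle populations. Its log2 ratio of 2KO over WT was 1.95 in matrix and -1.98 in ORS, each from 1 array per genotype. The difference between the populations was not tested.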

How the results depend on the processing

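A fit with a replicate block could not be made because each group has 1 array and the labels give no replicate numbers. Pairing 2KO with WT by population was possible and was not run. Leaving out a replicate would leave a group empty. The 12 members higher in 2KO basal epidermis were 12 under each scaling, with the 25th percentile as the floor and with the mean of all probe sets. They were 8 of 32 members without probe sets marked as shared. At the 75th percentile, 6 members were higher and 1 lower in 2KO basal epidermis, 3 higher and 1 lower in matrix, and 0 higher and 2 lower in ORS. At the 25th percentile 4 were lower in basal epidermis, 6 lower in matrix, and 7 higher and 7 lower in ORS. In matrix, 5 of 9 Sprr genes, 3 of 12 S100a genes and Rptn were higher in 2KO at that floor. Between WT populations, the 75th percentile gave 1 member lower in basal epidermis than in ORS and 3 lower in matrix than in ORS, and the 25th percentile gave 9 lower in matrix than in ORS and 7 lower in basal epidermis than in matrix. Shares over all genes at these other floors are not given here, so the counts at those floors were not read further. A common median gave 4 lower in 2KO matrix and 2 higher in 2KO ORS, and hybridisation controls gave 7 lower in 2KO matrix and 3 lower in WT matrix than in WT ORS. Over all genes measured, the median log2 ratio with a common median was -0.07 for basal epidermis, -0.24 for matrix and -0.24 for ORS, and with hybridisation controls it was -0.06, -0.58 and -0.14. A higher floor lowers the number of measurable members by construction, while the cause of the scaling effects was not tested. Of 374 ratios of named members under the alternatives, 351 stayed on their side of 2-fold, 11 no longer reached it, 12 newly reached it and 0 reversed past it. Ratios with both signals below the floor in the main setting or under the alternative, and genes left without a probe set, are not among the 374.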

Other observations

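Probe sets that name several genes of the locus were left out of the counts above. A probe set annotated to 3 Sprr genes at once read 20400 in 2KO and 7316 in WT basal epidermis, 692 in 2KO and 154 in WT matrix, and 816 in 2KO and 271 in WT ORS, or 2.79-, 4.49- and 3.02-fold higher. Another, annotated to 2 of the same genes, read 16831 in 2KO and 7290 in WT basal epidermis, 525 in 2KO and 102 in WT matrix, and 732 in 2KO and 204 in WT ORS. One more, for that same pair, read 569 in 2KO and 193 in WT basal epidermis and was below the floor on the 4 follicle arrays. These copies cannot be told apart by their probes. A probe set shared by an S100a gene and its pseudogenes read 28884 in 2KO and 26325 in WT basal epidermis, 15508 in 2KO and 10749 in WT matrix, and 22555 in 2KO and 18388 in WT ORS, within 1.44-fold in each.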
